A study of Mus musculus with 18 samples.

Results

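The TRIM (tripartite motif) family was examined in the accessible chromatin of mouse bone marrow-derived macrophages (BMDMs). All protein-coding genes of the GENCODE M21 annotation (mm10 genome) whose symbol is Trim followed by a number and an optional letter were taken, which gave 68 of 21938 protein-coding genes. ATAC-seq, in which the Tn5 transposase cuts open chromatin, had been carried out on wild type BMDMs in 9 groups of 2 libraries. Every culture had first received DMSO for 1 h. One group was then left untreated, 4 groups received LPS at 10 ng/mL for 30 min, 1 h, 2 h or 4 h, and 4 groups received IL-4 at 10 ng/mL for the same times. The lists used here merge all libraries into 1 catalog of 82391 reference peaks, 59617 extended regions (wider intervals around accessible sites) and 84660 scored summits. A gene's values are therefore a property of the merged catalog, without replicate error, and stimuli and time points could not be compared.

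TRIM proteins typically carry a RING domain, one or more B-boxes and a coiled coil, though some lack the RING domain. Most act as E3 ubiquitin ligases, which attach ubiquitin chains to target proteins. Many have a C-terminal PRYSPRY domain that binds the target, such as a viral capsid or an antibody. In macrophages the family is known for restricting viruses and for tuning the signals that run from pattern recognition receptors to interferon and NF-kB. Interferon-inducible genes often carry an interferon-stimulated response element (ISRE) in the promoter, the binding sequence of the ISGF3 complex and of interferon regulatory factors.

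A peak within 1000 bp of an annotated start site (a start site peak) was found for 46 of 68 TRIM genes (67.6%, 95% Wilson interval 55.8 to 77.6). Over all protein-coding genes the share was 56.5%, just inside that interval. Such intervals cover counting error only and treat genes as independent, which copies of 1 ancestral gene are not. The authors kept only peaks past a strict q-value, so a missing peak means none at that cutoff. By role, a start site peak was present at 14 of 17 members on the interferon and antiviral list, 9 of 10 on the signalling list and 6 of 7 on the neuron and cytoskeleton list. It was present at 0 of 4 muscle members and 2 of 10 members known from germ cells, the early embryo or the erythroid lineage. All muscle and all germ cell, embryo and erythroid members have CpG-poor promoters (few CpG pairs around the start), for which the share over all genes was 32.3%. CpG-rich promoters belonged to 3 of 17 interferon and antiviral, 6 of 10 signalling and 4 of 7 neuron and cytoskeleton members. The lists are small, were chosen with earlier results known and in part overlap in biology, and the differences between them were not tested.

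The label of the cells was set against marker genes. Start site peaks lay at 8 of 8 macrophage markers, among them Csf1r, Adgre1 and Spi1. They also lay at 1 of 6 T cell, 3 of 5 B cell, 2 of 5 neutrophil, 2 of 5 fibroblast and 1 of 4 muscle markers, and at 0 of 4 erythroid and 0 of 4 neuron markers. Whether other cells added to any TRIM peak was not tested.

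The sequences shown here are the ISREs of the interferon and antiviral members. An ISRE was read as GAAA, then 1 or 2 bases, then GAAA, on either strand, within 100 bp of a gene's best scored start site summit. It was found at 8 of 46 members with a start site peak (17.4%), against 3.33% of all protein-coding genes with such a peak. All 8 belong to the interferon and antiviral list, and 6 of the 8 lie in 1 gene cluster on chromosome 7. Outside that cluster the count was 2 of 38 members (5.26%), near the share of all genes, and inside it 6 of 8. The matches of this cluster are shown first, because they differ between groups of copies. Each sequence is mm10 (assembly GRCm38.p6), read 5′ to 3′ on the gene's own strand, with the ISRE in capitals. A match to the opposite strand appears as TTTC repeats. Where the stretch overlaps an exon it is cut to 30 bases. The intervals are chr7:104244457-104244486 for Trim34a (plus strand) and, on the minus strand, chr7:104288120-104288180 for Trim5, chr7:104315466-104315495 for Trim12a, chr7:104353359-104353388 for Trim12c, chr7:104400845-104400905 for Trim30c, chr7:104465194-104465254 for Trim30a and chr7:104507855-104507915 for Trim30d.
Trim34a: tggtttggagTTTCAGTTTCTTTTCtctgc
Trim5: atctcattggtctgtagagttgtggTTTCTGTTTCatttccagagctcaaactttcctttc
Trim12a: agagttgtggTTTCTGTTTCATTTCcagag
Trim12c: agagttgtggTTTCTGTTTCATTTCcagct
Trim30c: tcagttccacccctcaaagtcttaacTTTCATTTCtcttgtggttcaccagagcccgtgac
Trim30a: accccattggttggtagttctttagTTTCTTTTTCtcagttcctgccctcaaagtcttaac
Trim30d: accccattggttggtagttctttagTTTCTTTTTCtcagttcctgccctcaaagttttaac

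Except at Trim30b, shown further below, capitals mark matches that lie wholly inside the 100 bp window around the summit. Further matches of Trim5, at or beyond the window's edge, are in lower case. Trim12a had an ISRE at both of its lower scored summits (812 and 685) and none at its best, so it is not among the 8, and the match at the summit of 812 is printed. The remaining pair lies outside the chromosome 7 cluster. Trim21, on the same chromosome at chr7:102565450-102565479 (minus strand), encodes the cytosolic antibody receptor. Trim26, at chr17:36836960-36837020 (plus strand), encodes a ligase of the interferon pathway. Trim14, an adaptor of mitochondrial antiviral signalling, had an ISRE at a lower scored summit at chr4:46536124-46536153 (minus strand) and is shown for comparison.
Trim21: cctctgagagGAAACTGAAAGTGAAAtttg
Trim26: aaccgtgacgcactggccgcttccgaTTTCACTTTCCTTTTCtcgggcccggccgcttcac
Trim14: ccgagcaaggTTTCGATTTCtgcaccaacc

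**Figure D1:**
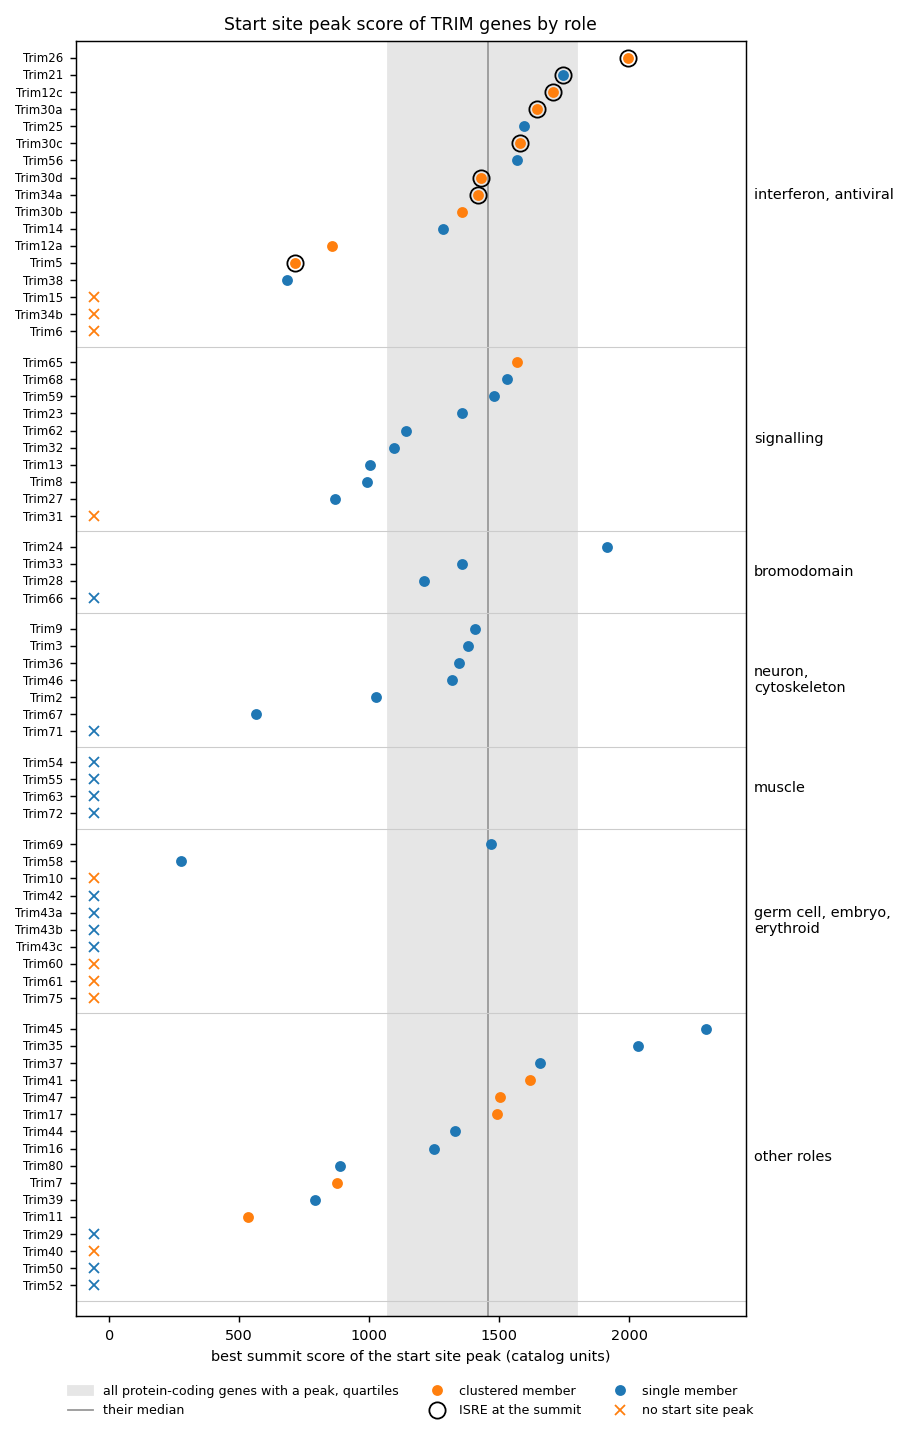
Best summit score of the start site peak of each TRIM gene (x axis, catalog units), with genes grouped by role on the y axis. Orange marks clustered and blue single genes, crosses to the left of 0 mark genes without a start site peak, black rings mark an ISRE at the best summit, and the grey band and line give the quartiles (1071 to 1799) and the median (1456) of all protein-coding genes with a start site peak. All 8 rings lie in the interferon and antiviral group, and the 4 muscle genes have crosses only.

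The score of a summit is a whole number given by the authors without a scale, and it was used here to rank peaks within the catalog. The best start site score of the 46 members had a median of 1357 (quartiles 1008 and 1568, range 274 to 2297). Over all 12402 protein-coding genes with a start site peak the median was 1456 (quartiles 1071 and 1799, range 140 to 2781). Of the 46 members, 18 were at or above that median, 4 were at or above the upper quartile and 13 at or below the lower one. The family's share of genes with a start site peak was thus higher than that of all genes and its median score lower, and neither difference was tested.

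The highest score was that of Trim45, at 2297, above 99.1% of all genes with a start site peak. Trim35 followed at 2034, Trim26 at 1995 and Trim24, a bromodomain co-regulator of nuclear receptors, at 1916. The next were Trim21 at 1747, Trim12c at 1708, Trim37, a centrosome regulator mutated in Mulibrey nanism, at 1657, Trim30a at 1644, Trim41 at 1619 and Trim25 at 1594. Of these 10, 5 belong to the interferon and antiviral list, which holds 14 of the 46 members with a start site peak. The lowest was Trim58, known from the maturation of red blood cells, at 274. Trim11 scored 534, Trim67 563, Trim38 685 and Trim5 716. The best summit lay within 200 bp of an annotated start site at 36 of 46 members, upstream of it at 33 and downstream at 13, with a median position of -46.5 bp (negative values lie upstream).

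Few members had their nearest peak near the 1000 bp limit. The best scored peak could lie farther out than the nearest one, as at Trim69 (summit at 893 bp), Trim28 (-860 bp) and Trim11 (633 bp). The peaks of Trim80 (893 bp away, score 889), Trim58 (632 bp) and Trim38 (614 bp) were the farthest inside it, and the nearest peaks of Trim72 (1529 bp) and Trim40 (2270 bp) were the closest outside. Within 500 bp of a start site 43 members kept a peak, and within 2500 bp 48 did. At 3 members the peak could belong to a neighbour, since the start of another protein-coding gene lay within 1000 bp of it. These were Trim46 (Krtcap2), Trim17 (the histone gene Hist3h2a) and Trim23 (Trappc13).

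Among the interferon and antiviral members, partners of the nucleic acid sensors had start site peaks. Trim25, the ligase that modifies the RNA sensor RIG-I, scored 1594, and Trim56, a ligase of the antiviral response, scored 1568. Trim14 scored 1284 and had 2 further start site peaks of 923 and 1141. Trim21 scored 1747, with its summit at -29 bp from 1 annotated start and its ISRE at -18 bp from another. The ISRE lay 51 bp from the summit, downstream of the start nearest to the summit. Trim26 scored 1995, with its summit at -48 bp and its ISRE at -144 bp. Trim38, a regulator of Toll-like receptor signalling, had a weaker peak of 685 whose summit lay at -713 bp. The 3 members of this list without a start site peak were Trim6, Trim34b and Trim15.

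The chromosome 7 cluster runs from Trim6 to Trim30d (chr7:104218793-104507849, 289057 bp) and holds 10 members, with 0 other protein-coding genes inside. It includes the mouse relatives of the primate restriction factor TRIM5 (Trim5, Trim12a and Trim12c) and of Trim30a, a regulator of Toll-like receptor signalling. Start site peaks were found at 8 of its 10 members. Their best scores were 1418 at Trim34a, 716 at Trim5, 856 at Trim12a, 1708 at Trim12c, 1357 at Trim30b, 1581 at Trim30c, 1644 at Trim30a and 1431 at Trim30d. Trim34a, Trim12c and the 4 Trim30 genes thus sat at 1357 or above, and Trim5 and Trim12a at 856 or below. The nearest peak lay 12308 bp from a Trim6 start and 13823 bp from the Trim34b start. Outside the cluster, within 250000 bp of it, 27 other protein-coding genes are annotated, 22 of them olfactory receptor (Olfr) genes, and 1 of the 27 had a start site peak.

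**Figure D2:**
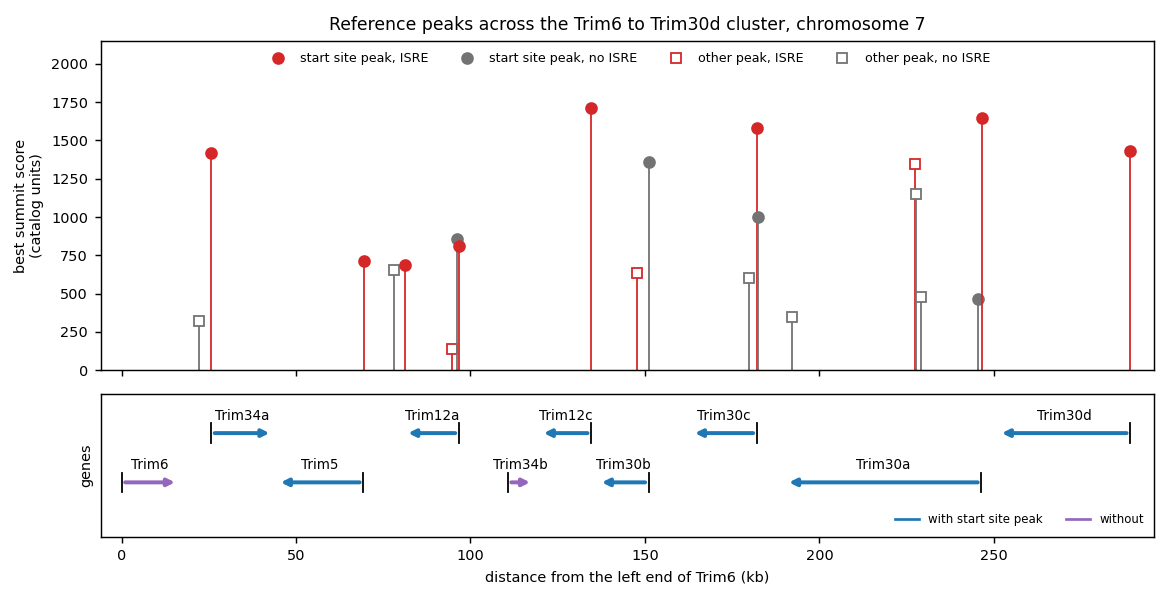
Reference peaks across the Trim6 to Trim30d cluster on chromosome 7, with distance from the left end of Trim6 in kb on the x axis. The upper panel gives the best summit score of each of the 21 peaks (circles at TRIM start sites, squares elsewhere, red with an ISRE within 100 bp of the best summit), and the lower panel gives the genes as arrows from start to end, purple where no start site peak was found. Of the 21 stems 11 are red, and no circle stands at the starts of Trim6 and Trim34b.

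The cluster held 21 reference peaks, 12 at start sites of its members and 9 elsewhere. An ISRE lay within 100 bp of the best summit of 11 of the 21 (52.4%), against 6.31% of all 82391 reference peaks. It was present at 8 of the 12 start site peaks and 3 of the 9 others. The copies descend from common ancestors, so the peaks are not independent draws. Outside the start sites, the highest score was 1345, at a peak with an ISRE inside Trim30a, 227 kb from the left end of the cluster.

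The ISREs of the cluster were compared between copies by position and neighbouring sequence. In 300 bp around the match, Trim5 was 99.3% identical to Trim12a and 95.7% to Trim12c, and the aligned place carried an ISRE in all 3 genes. Trim30a and Trim30d were 94.7% identical, with an ISRE at -31 and -36 bp. The printed ISRE of Trim30c, at -38 bp, did not align with these. Where the Trim30a match aligned in Trim30c (80.6% identity), no ISRE was within 15 bp. Trim30b likewise carried no ISRE where the Trim30a match aligned (83.5% identity, chr7:104369883-104369912, minus strand), but had one at 3 bp from its start, where the Trim30c match aligned (79.4% identity, chr7:104369848-104369877, minus strand). The Trim30c match also aligned to places with an ISRE within 15 bp in Trim30a (4 bp from the start) and Trim30d (-1 bp). All Trim30 genes thus had an ISRE at or near this place. Trim30a and Trim30d had the matches at -31 and -36 bp besides. The stretch of Trim30b aligned to Trim30a is printed without capitals. Its own match is in capitals, though it was found near the principal start site. No ISRE was counted at the best summit of Trim30b.
Trim30b, aligned to Trim30a: tggtacaagttcctctttctcagttcctac
Trim30b, own match: aagtctgaacTTTCATTTCtctcctggctc

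The ISREs lay close to the start sites and beside the summits, 14 bp (Trim30d) to 96 bp (Trim26) from them, so the count depended on where the window was centred. These distances run to the middle of the match, while a match was counted only when it lay wholly inside the window. Within 50 bp of the summit 2 of 46 members had an ISRE (4.35%, all genes 1.71%), and within 200 bp 11 had one (23.9%, all genes 6.77%). A window of 100 bp around the start site of the principal transcript, chosen after the positions were seen, gave 10 of 46 (21.7%, all genes 2.81%). These were Trim14, Trim21 and all 8 chromosome 7 members with a start site peak, without Trim26. Within 1000 bp of any start site, letters of an ISRE are common. They occurred at 32 of 46 members with a start site peak (69.6%, all such genes 64.3%) and at 7 of 22 members without one (31.8%, all such genes 55.3%). The members with a peak had a median of 3 annotated start sites and those without a median of 2, so more sequence was searched in the former. The 7 were Trim63 with 5 matches, Trim6 and Trim40 with 3 each, and Trim72, Trim43c, Trim71 and Trim15 with 1 each. Trim34b had 0.

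Near-identical copies limit what these peaks can show. The 76 bases at the best summit, the length of a read, occurred once in the genome for 43 of 46 members. The same held for the 38 bases there, the shortest reads kept after trimming. The 3 exceptions, among members with a peak, all lie in the cluster. The summit sequence of Trim5 also lay 109 bp from the start of Trim12a, and those of Trim30a and Trim30d lay at each other's start sites. A read from there cannot be assigned to 1 of the copies by its sequence. Over the cluster's member genes and their close flanks, 79.6% of positions started a 76 base sequence found once. Over those of the Trim75 to Trim61 cluster 98.6% did so. Other sequence between the genes was left out, and overlapping genes were counted separately. Members without a start site peak were affected too. Around their start sites 65.7% of such sequences were found once at Trim34b, 67.0% at Trim43a, 72.9% at Trim43b and 66.5% at Trim43c, and 8 of 68 members were below 90%. At 38 bases, 15 members were below 90%, with 42.5% at Trim34b, 40.5% at Trim43a, 39.5% at Trim43b and 39.5% at Trim43c. The effect of shared sequence on peaks, present or missing, was not tested.

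The shares of other binding sequences were read in the same way. Against all protein-coding genes with a start site peak, AP-1 (TGANTCA) was found at 5 of 46 best summits (all genes 5.75%) and PU.1 (GAGGAAGT), the binding sequence of a macrophage lineage factor, at 3 (3.97%). NF-kB (GGGANTTTC) was found at 2 (0.935%), the STAT sequence GAS (TTCNNNGAA) at 2 (4.42%) and CRE (TGACGTCA) at 1 (3.43%). Of sequences common in CpG-rich promoters, SP/KLF (GGGGCGGGG) was found at 11 (19.1%), the E-box (CACGTG) at 5 (9.07%) and ETS (CCGGAAGT) at 0 (7.54%). Both strands were searched, and a PU.1 or GAS match may overlap an ISRE. In the chromosome 7 cluster, PU.1 occurred at Trim12c and Trim5, AP-1 at Trim12a and Trim30d, GAS at Trim30c and NF-kB at Trim12a. All 11 SP/KLF matches lay outside it. A match of letters is not a bound factor, and binding was not measured here.

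**Figure D3:**
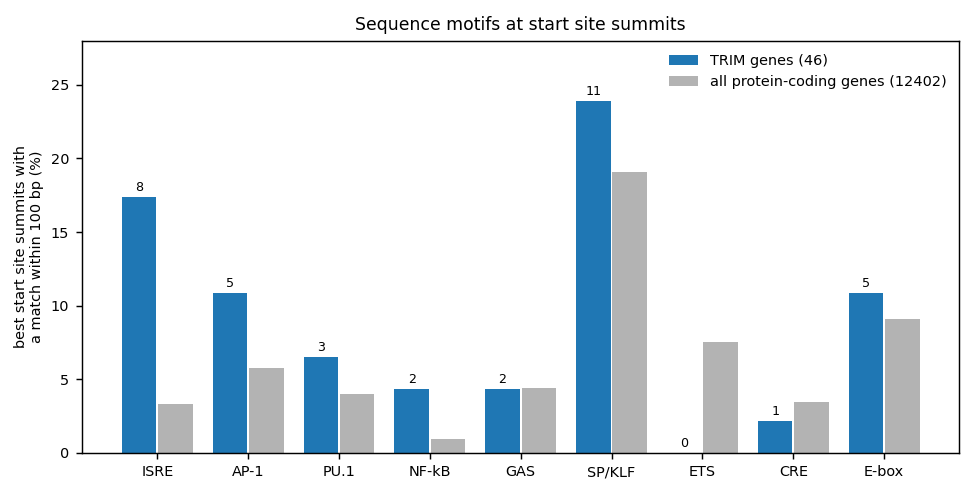
Share of best start site summits with a sequence match within 100 bp (y axis, %) for 9 motifs (x axis), in the 46 TRIM genes (blue, counts above the bars) and all 12402 protein-coding genes with a start site peak (grey). The widest gap is at the ISRE, 17.4% against 3.33%, with 6 of the 8 TRIM matches in the chromosome 7 cluster, and ETS was matched at 0 TRIM genes.

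Promoter base composition was also set beside these shares. A promoter was called CpG-rich when the 1000 bp around the principal start had a ratio of observed to expected CpG of at least 0.6 and a GC content of at least 50%. Of the 68 members 26 were CpG-rich (38.2%), against 46.1% of all genes, a difference that was not tested. A start site peak was present at 24 of 26 CpG-rich members (92.3%, all CpG-rich genes 84.9%) and at 22 of 42 CpG-poor members (52.4%, all CpG-poor genes 32.3%). The CpG-poor members include all 10 of the chromosome 7 cluster, and without it the share was 14 of 32 (43.8%). The 2 CpG-rich members without a start site peak were Trim71, an RNA-binding regulator of embryonic stem cells, and Trim52.

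Of the signalling members, Trim65, the ligase of the RNA sensor MDA5, scored 1568, Trim68 1531 and Trim59 1480. Trim23, which combines a ligase with a GTPase domain, scored 1357. Trim62, a ligase of the adaptor CARD9, scored 1141 and Trim32, a ligase mutated in limb-girdle muscular dystrophy, 1094. Trim13, an ER membrane ligase, scored 1002, Trim8 990 and Trim27 867. The list's median of 1141 (9 genes) lay below the interferon and antiviral median of 1499.5 (14 genes), and the ranges of the lists (867 to 1568 and 685 to 1995) overlapped. Trim31, a ligase of the mitochondrial adaptor MAVS, had no start site peak.

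The bromodomain members act on chromatin. Trim24 scored 1916, Trim33, a partner of SMAD signalling, 1357 and Trim28, the co-repressor of KRAB zinc finger proteins, 1212. Trim66, known from testis, had no start site peak but 4 gene body peaks, defined as reference peaks inside the gene and over 1000 bp from its start sites. Of the neuron and cytoskeleton members, Trim9 scored 1406, Trim3 1381, Trim36 1345, Trim46, a microtubule organiser of the axon, 1320, Trim2 1025 and Trim67 563. The seventh, Trim71, also known from the embryo, had no start site peak.

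None of the muscle members had a start site peak. They are the MuRF ligases of the sarcomere, Trim63, Trim55 and Trim54, and the membrane repair protein Trim72. Their nearest peaks lay 7255 bp, 14010 bp, 21076 bp and 1529 bp from a start. Of the germ cell, embryo and erythroid members, Trim69 (1468) and Trim58 (274) had a start site peak. The summit of 1468 lay 893 bp from a Trim69 start, and the peak nearest to a start scored 923. Trim42 lay farthest from any peak, at 258602 bp, followed by Trim60 (67367 bp) and Trim61 (63293 bp). The preimplantation genes Trim43a, Trim43b and Trim43c had their nearest peaks at 18254 bp, 43814 bp and 3016 bp. Of the other members without a start site peak, Trim52 was 49101 bp, Trim50 16542 bp and Trim29 4798 bp from a peak. Over the 22 members without a start site peak, the distance to the nearest peak had a median of 15276 bp (range 1529 to 258602 bp), and 17 of them had no gene body peak either.

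Gene body peaks were found in 32 of 68 members (47.1%), against 39.9% of all protein-coding genes. There were 75 of them, or 4.04 per 100 kb of gene against 3.33 over all genes. Trim2, whose gene spans 146439 bp, had 6, and Trim36 and Trim8 had 5 each. The highest scored ones lay in Trim8 (1929), Trim36 (1812), Trim14 (1786) and Trim69 (1543), and in all 4 genes they scored above the gene's own start site peak. Trim3 had 4, the best at 1505. Of the 75, 5 carried an ISRE at the best summit, 1 each in Trim69, Trim2, Trim12a, Trim30b and Trim30a. This share was 6.67%, beside 6.31% of all reference peaks. It was 3 of 7 in the chromosome 7 cluster and 2 of 68 outside it (2.94%). Trim66, with 4, had the most among members without a start site peak (best score 759), and Trim55 and Trim71 had 3 each (best scores 812 and 867).

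**Figure D4:**
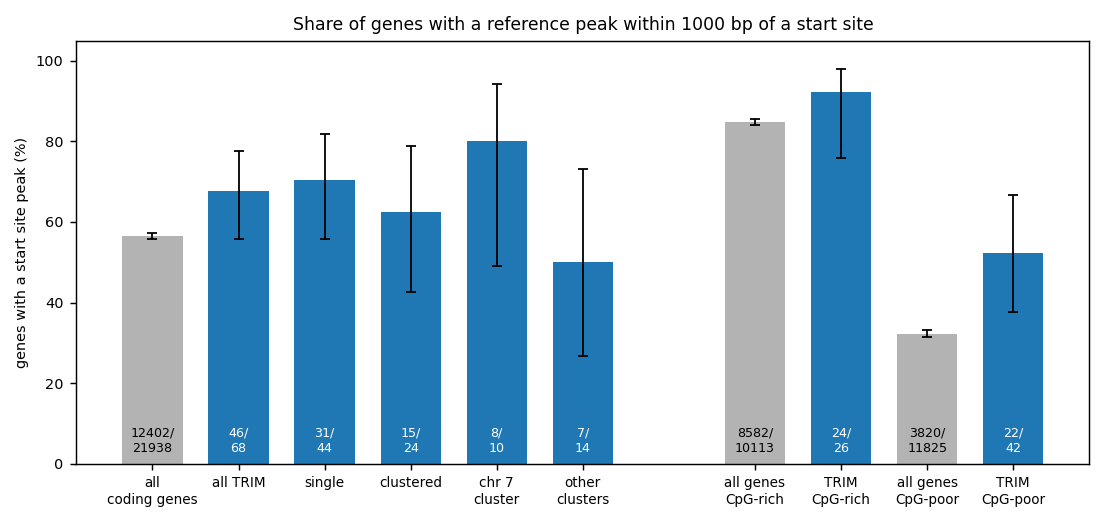
Share of genes that had a start site peak (y axis, %), for all protein-coding genes (grey) and groups of TRIM genes (blue), with 95% Wilson intervals as error bars and counts inside the bars. The clustered genes (15 of 24) and single genes (31 of 44) have overlapping intervals, and CpG-poor TRIM genes stand at 52.4% beside 32.3% of all CpG-poor genes.

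A gene was called clustered when the borders of another member lay within 100000 bp on the same chromosome. This gave 24 clustered members in 6 clusters and 44 single ones. The widest gap inside a cluster was 14004 bp (Trim12a to Trim34b), and the narrowest outside was 112095 bp (Trim21 to Trim68). A start site peak was present at 15 of 24 clustered (62.5%, 42.7 to 78.8) and 31 of 44 single members (70.5%, 55.8 to 81.8), and the intervals overlapped. The median best score was 1493 for clustered and 1332 for single members with a peak.

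The 6 clusters were unlike each other. Beside the 8 of 10 members on chromosome 7, all members of the 3 pairs on chromosome 11 had a start site peak. These scored 1619 (Trim41) and 878 (Trim7), 1493 (Trim17) and 534 (Trim11), and 1505 (Trim47) and 1568 (Trim65). On chromosome 17, Trim26 was the only 1 of 5 members with a start site peak, and Trim15, Trim10, Trim40 and Trim31 had none in a cluster that spans 73081 bp. The Trim75, Trim60 and Trim61 cluster on chromosome 8 (chr8:64980884-65018584) held 0 reference peaks in 37701 bp.

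**Figure D5:**
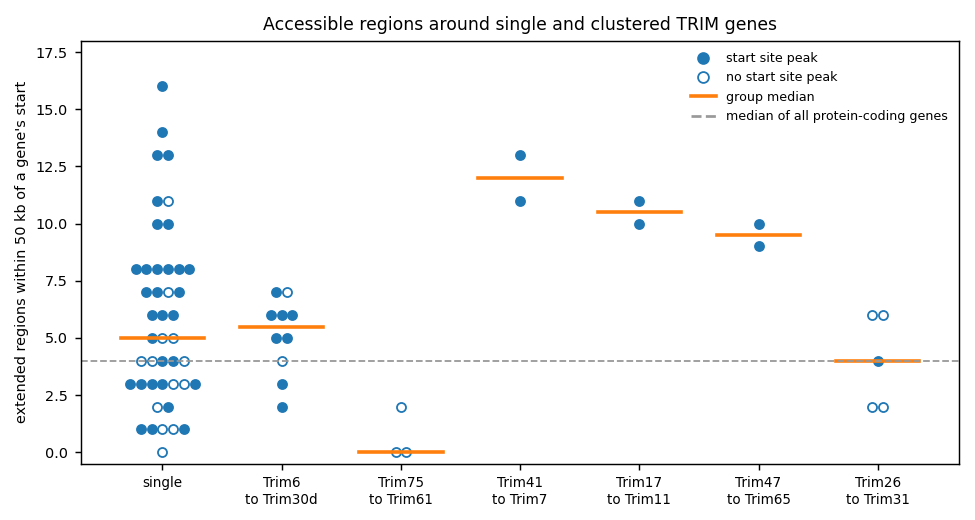
Number of extended regions within 50 kb of the most upstream start (y axis) for each single TRIM gene and each gene of the 6 clusters (x axis). Filled points have a start site peak, open points have none, orange bars are group medians and the dashed line is the median of all protein-coding genes (4). The 3 chromosome 11 pairs lie at 9 or above and the Trim75 to Trim61 genes at 2 or below.

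Within 50 kb to each side of the most upstream start, TRIM genes had a median of 5.5 extended regions (quartiles 3 and 8, range 0 to 16), against 4 over all genes (quartiles 1 and 8, range 0 to 26). The highest number was at Trim46 (16), followed by Trim14 (14) and by Trim8, Trim25 and Trim7 (13 each). It was 0 at Trim42, Trim60 and Trim61. Trim72 had 11, the most among members without a start site peak. The medians were 6 for clustered and 5 for single members, but neighbours share regions. The 10 chromosome 7 genes had 51 in sum and 17 distinct ones. Counted once per cluster, the 6 clusters had a median of 11 distinct regions against 5 for single genes, a difference of 6, with windows that together cover more sequence than that of a single gene. Divided by the members of each cluster, the median was 3.35, a difference of -1.65. The difference between clustered and single members thus took either sign with the way of counting.

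Genes related to the family and genes of its pathways were set beside it. Of 12 relatives with similar domains, 6 had a start site peak, led by Mid1 (1786), a microtubule-associated ligase, and Pml (1594), the organiser of nuclear bodies. Of 18 genes of the RIG-I, STING and NF-kB pathways in which TRIM ligases act, 18 had one (all genes 56.5%), with a median score of 1568.5. An ISRE lay at the best summit of 5 of these 18 (27.8%, all genes 3.33%), a larger share than in the TRIM family, though the difference was not tested. The 5 were the RNA sensor genes Ddx58 (593) and Ifih1 (1456), the DNA sensor gene Cgas (1708), Tmem173 (654), which encodes STING, and the ubiquitin-like modifier gene Isg15 (1048).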

How the data were processed

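The authors trimmed the 76 base single-end reads (BBDuk, Trimmomatic 0.39), aligned them to mm10 with ShortStack, filtered them with SAMtools 1.9 and called peaks with MACS2 2.2.6, with duplicates kept. They retained peaks that passed a strict q-value cutoff in each library and overlapped over a minimum share of their area between replicates. No shift towards the Tn5 cut site is named. The deposited lists hold positions, and the authors' summit score has no stated scale. No column per library existed and 0 columns belonged to other samples, so the depth per library is unknown, no test was run and no replicate was compared.

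Genes came from GENCODE M21 and sequence from GRCm38.p6, credited to RefSeq. Positions count from 1. Python 3.11.15, pandas 2.3.3, pysam 0.24.0 and Biopython 1.88 (local alignment) were used, and counting was tested on simulated data. Members and lists were chosen with earlier results of these data known. Every member could be named. Named in full were cluster, interferon and bromodomain members, the 10 highest and 5 lowest scores, and members without a start site peak with the most other peaks. Alternatives changed windows, cluster definition, score filter and motif window.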

Additional observations from a re-analysis of the deposited data

How the results depend on the processing

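No paired analysis was possible because the merged catalog carries no value per library, and for the same reason no replicate could be left out. The numbers of members with a start site peak (41 to 48 of 68) and with a gene body peak (23 to 32), and the counts among clustered and single members, stayed within 1.5 times the reported ones under all alternatives run. The median number of extended regions followed its window, with 2.5 at 20000 bp and 10 at 100000 bp. The difference between the medians of clustered and single members, 1 as reported, was 0 at 20000 bp, 0.5 at 100000 bp, 0 with a cluster gap of 250000 bp, 0 where no other protein-coding gene was allowed between members, 6 when each region was counted once per cluster, and -1.65, reversed, when that number was also divided by the cluster's members, a division chosen after the data were seen. The number of members with an ISRE fell to 2 within 50 bp of the summit, since the other matches did not lie wholly inside that window. It was 11 within 200 bp, 10 at any start site summit and 10 around the principal start site, the last chosen after the data were seen. Peaks lack values per library, so weak ones cannot be set against a depth.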
